A study of Mus musculus with 6 samples.

Results

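The transcriptome described here is that of 2 cultures of mouse Th17 cells carrying an empty MSCV retroviral vector, 2 of the 6 libraries of the series. These cultures are the reference state of the series, in which the other 4 libraries came from Th17 cells overexpressing the RNA editing enzyme ADAR2, as the active form (ADAR2_WT) or an enzymatically dead form (ADAR2_E396A). The columns of the deposited tables carry no group name, and the libraries that appear in the tables of both constructs were taken as empty vector. They are called cultures A and B here, 1 library each, and come from separate wildtype mice of 8 to 12 weeks of age. Naïve CD4+ T cells were activated with 0.25 µg/mL anti-CD3ε and 1 µg/mL anti-CD28 in the presence of 0.1 ng/mL TGF-β and 20 ng/mL IL-6. They were transduced at 24 h, kept with 0.3 ng/mL TGF-β and 20 ng/mL IL-6 for a further 48 h, and collected at 72 h. All 6 cultures received the activation, the polarizing cytokines and a retrovirus, so no unpolarized or untransduced cells stand beside them, and each culture comes from a single mouse.

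Th17 cells are CD4 T helper cells that arise from naïve cells under TGF-β and IL-6 and secrete the cytokines IL-17A, IL-17F and IL-22, which act on epithelial and stromal cells and draw in neutrophils. IL-6 signals through STAT3, and a network of factors that includes BATF, IRF4, RORα, MAF and AHR shapes the program. IL-23, through its receptor, sustains the cells later on. The same naïve cells can become Th1, Th2, regulatory or follicular helper cells under other signals, each with factors and cytokines of its own.

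The genes for IL-17A and IL-17F are neighbours on chromosome 1, 42.65 kb apart (Il17a, ENSMUSG00000025929.4, 20730905 to 20734496, + strand, and Il17f, ENSMUSG00000041872.9, 20777146 to 20790617, − strand, mm10). The 250 bases before the RefSeq start of each are shown because this pair of genes had the highest levels among the Th17 markers and differed between the cultures. Capitals mark the TATA box TATAAA and the hexamer AGGTCA, which nuclear receptors bind, here in either orientation (TGACCT on the opposite strand).
Il17a, chr1:20730655-20730904, + strand (GRCm38.p6, RefSeq): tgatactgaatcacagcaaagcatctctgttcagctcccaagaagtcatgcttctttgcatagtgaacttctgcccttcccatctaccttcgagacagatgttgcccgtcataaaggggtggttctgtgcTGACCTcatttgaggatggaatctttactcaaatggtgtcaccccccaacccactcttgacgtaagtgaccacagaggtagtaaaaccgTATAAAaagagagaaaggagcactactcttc
Il17f, chr1:20784271-20784520, − strand (GRCm38.p6, RefSeq): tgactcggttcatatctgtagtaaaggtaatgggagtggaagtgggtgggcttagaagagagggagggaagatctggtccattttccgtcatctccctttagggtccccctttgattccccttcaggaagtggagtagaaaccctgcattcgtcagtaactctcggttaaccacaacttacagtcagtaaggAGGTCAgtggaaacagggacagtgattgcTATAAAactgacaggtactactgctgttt
TATAAA began 31 bases before the start of Il17a and 29 bases before that of Il17f. The hexamer began 120 bases before the Il17a start, on the opposite strand, and 58 bases before the Il17f start. On either strand, TATAAA was found in 12.4% and AGGTCA in 14% of 32851 promoter windows of this length. The AP-1 motif TGANTCA, found in 6.75% of the windows, occurred once in the Il17a window, 244 bases before the start, and not in that of Il17f. The STAT motif TTCNNNGAA, found in 7.02%, was in neither window.

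Culture A gave 19094778 reads assigned to genes and culture B 19674041, with 23401 and 23714 annotated genes detected. Assigned reads ranged from 16496328 to 21897166 over the 6 libraries. Levels are given in TPM, reads per kilobase of merged exons scaled to the same total in each library, and can be compared between genes. Normalized counts are reads divided by a size factor per library and are compared only between libraries. Intervals beside a ratio are exact 95% intervals that cover counting error alone, and reads without molecular identifiers are not independent molecules. With 1 library per culture, such an interval compares those libraries and is no test of a condition.

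All 6 genes used to mark Th17 cells were present in both cultures. Il17f was at 584 TPM in A and 1336 in B, and Il17a at 370 in A and 1482 in B. Among 15592 protein-coding genes with reads, their mean levels ranked 103 and 111. Il23r, the subunit specific to the IL-23 receptor, was at 170 and 173 TPM, and Rora, which encodes RORα, at 90.6 and 104. Maf, a factor that promotes IL-10 and Th17 cytokines, was at 77.4 and 60.2 TPM, and Ahr, the aryl hydrocarbon receptor that promotes Il22, at 54.4 and 27.6. The order of the levels was Il17f and Il17a, then Il23r, Rora, Maf and Ahr. Il17f and Il17a changed places between the cultures, whereas Il23r stayed above Rora, Rora above Maf and Maf above Ahr in each.

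The markers differed between the cultures in opposite directions. In normalized counts, Il17a was at 2398 in A and 9298 in B, 3.88-fold higher in B (3.71 to 4.06). Il17f was at 6540 and 14473, 2.21-fold higher in B (2.15 to 2.28). Ahr was at 1858 in A and 910 in B, 2.04-fold higher in A (1.89 to 2.21), and Maf at 3535 and 2658, 1.33-fold higher in A (1.26 to 1.40). Rora and Il23r had log2 ratios of B to A of 0.14 and -0.02. In cultures taken as a whole, fewer cells that express a gene and less RNA per cell cannot be told apart.

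In both cultures, 10940 protein-coding genes reached 1 TPM, 7697 reached 10 TPM, 1435 reached 100 TPM and 87 reached 1000 TPM, out of 21951 annotated. The median over the 15592 with reads was 10.6 TPM. The highest levels belonged to genes of the cytoskeleton and of translation. Actb, cytoplasmic actin, was at 11269 TPM in A and 12889 in B, and Eef1a1, which brings transfer RNA to the ribosome, at 11634 and 8794. The ribosomal stalk genes Rplp1 and Rplp0 were at 9554 and 8186 and at 6671 and 6172 TPM. Vim, the intermediate filament vimentin, was at 5498 and 5460 TPM, and Hsp90ab1, a chaperone, at 4865 and 4928. Below these, Il2ra, the IL-2 receptor α chain CD25 induced by T cell activation, was at 3626 and 3880 TPM. Penk, which encodes the opioid precursor proenkephalin and was chosen after its values were seen, was at 1544 TPM in A and 2848 in B.

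Transcription factors associated with Th17 cells ranged from Nr1d1, the nuclear receptor REV-ERBα, at 3.73 TPM in A and 1.78 in B, to levels near those of glycolytic enzymes. All 20 of the listed genes reached 1 TPM in both cultures, 16 reached 10 TPM and 9 reached 100 TPM. The highest were Bhlhe40, a repressor of Il10 in T helper cells (1040 TPM in A and 1142 in B), Hif1a, the oxygen-regulated factor that favours glycolysis (1089 and 982), and Junb, an AP-1 subunit needed for the Th17 program (876 and 1023). Irf4 and Batf, which bind DNA together downstream of the antigen receptor, were at 660 and 638 and at 189 and 214 TPM. Stat3, the transducer of IL-6 signals, was at 213 and 215. Satb1, a chromatin organizer, was at 327 and 294 TPM, and Ets1 at 343 and 252. Hif1a and Bhlhe40 exchanged rank between the cultures, while both stayed above Irf4 and Irf4 above Satb1.

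Of the 19 Th17 factor genes averaging 50 normalized counts or more, none was 2-fold or more higher in B, where 0.689% of all genes above this floor were, and 3 were 2-fold or more higher in A, where 0.997% of all genes were. Besides Ahr these were Prdm1, which encodes the repressor Blimp-1, at 20.1 TPM in A and 7.45 in B, and Ikzf3, which encodes Aiolos, at 13.5 and 5.02. Prdm1 was 2.79-fold higher in A (2.39 to 3.26) and Ikzf3 2.78-fold (2.39 to 3.23). The median log2 ratio of the 19 genes was -0.10, against 0.03 over all 10735 genes above the same floor.

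**Figure D1:**
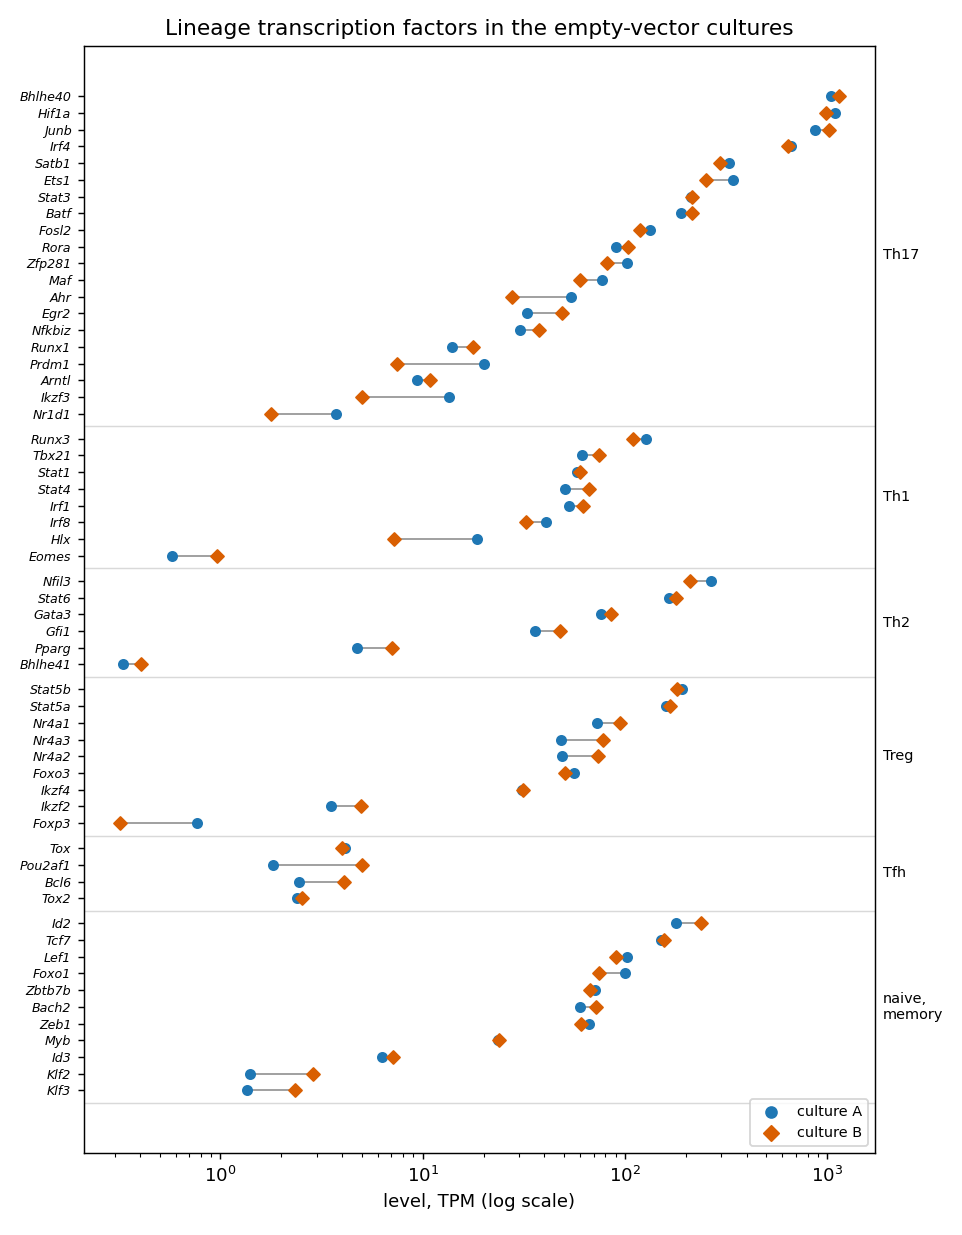
Levels of lineage transcription factors in the 2 empty-vector cultures, in TPM on a log axis, with a circle for culture A and a diamond for culture B, grouped by the lineage they are listed under (genes with reads, highest mean first). Most pairs of points lie close together, while Ahr, Prdm1, Ikzf3 and Hlx lie to the left in culture B, and Foxp3 and Eomes lie below 1 TPM in both.

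Factors of other helper lineages were partly present. For Th1, Tbx21, which encodes T-bet, was at 61.4 TPM in A and 74.8 in B, Runx3 at 127 and 109, and Stat4 at 50.7 and 66.7, while Eomes was at 0.579 and 0.965. Hlx, a homeobox factor that acts with T-bet, was at 18.5 TPM in A and 7.2 in B, 2.66-fold higher in A (2.08 to 3.43). For Th2, Gata3 was at 76.5 and 85.0 TPM, Nfil3 at 268 and 210 and Stat6 at 165 and 178. Foxp3, the defining factor of regulatory T cells, was at 0.768 TPM in A and 0.318 in B, 19 and 8 reads. Bcl6, the factor of follicular helper cells, was at 2.46 and 4.11 TPM, and Ascl2 had no read in either library, which allows up to 3 reads in each. Factors of naïve and memory cells were present, with Tcf7 at 151 and 157 TPM, Lef1 at 102 and 90.5 and Foxo1 at 100 and 74.5. Id2, listed with them, was at 179 and 237 TPM. Among the factor lists other than the Th17 list, Hlx was the 1 gene above the floor that differed 2-fold or more between the cultures. Of all genes above the floor, 1.69% did.

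Cytokine genes differed between the cultures in their summed level. The 41 listed genes added up to 5500 TPM in A and 9164 TPM in B, and 28 of them reached 10 TPM in both. Most of the gap between the sums lay in Il17a, Il17f and Il22. Mif, macrophage migration inhibitory factor, was at 1381 and 1379 TPM. Il22, which acts on epithelial cells, was at 487 TPM in A and 1144 in B. Il24, of the IL-10 family, was at 540 and 658 TPM, Lif, of the IL-6 family, at 510 and 633, and Lta, lymphotoxin α, at 335 and 425. Tnfsf11, which encodes the osteoclast-inducing ligand RANKL, was at 92.3 TPM in A and 268 in B. Il10 was at 160 and 155 TPM. Of the Th1 and Th2 cytokines, Ifng was at 32.0 and 30.8 TPM and Il4 at 11.6 and 12.3. Il25, the IL-17 family member known from epithelial and innate cells, had 0 reads in both libraries.

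Above the floor of 50 normalized counts, 9 of 31 cytokine genes were 2-fold or more higher in B, where 0.689% of all 10735 genes were, and none was 2-fold or more higher in A, where 0.997% were. Il9, a mast cell and T cell growth factor, was at 65.6 normalized counts in A and 353 in B, 5.39-fold higher in B (4.12 to 7.14). Il2, the growth factor of activated T cells, was at 164 and 724, 4.42-fold higher (3.72 to 5.27). Csf2, which encodes GM-CSF, was at 88.1 and 323, 3.67-fold higher (2.88 to 4.70). Its neighbour Il3, 15.63 kb away on chromosome 11, was at 170 and 482, 2.83-fold higher (2.37 to 3.40). Tnfsf11 was 2.80-fold higher (2.62 to 3.00), Il22 2.27-fold (2.18 to 2.37) and Tgfb2, at 23.6 and 85.9 normalized counts, 3.64-fold (2.28 to 6.04). Il17a and Il17f complete the 9. Tgfb2, below 50 in A, met the floor only through its value in B. The difference did not extend to every cytokine gene, since Mif, Il10, Ifng and Il4 had log2 ratios between -0.10 and 0.04. The median log2 ratio over the 31 genes was 0.26.

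**Figure D2:**
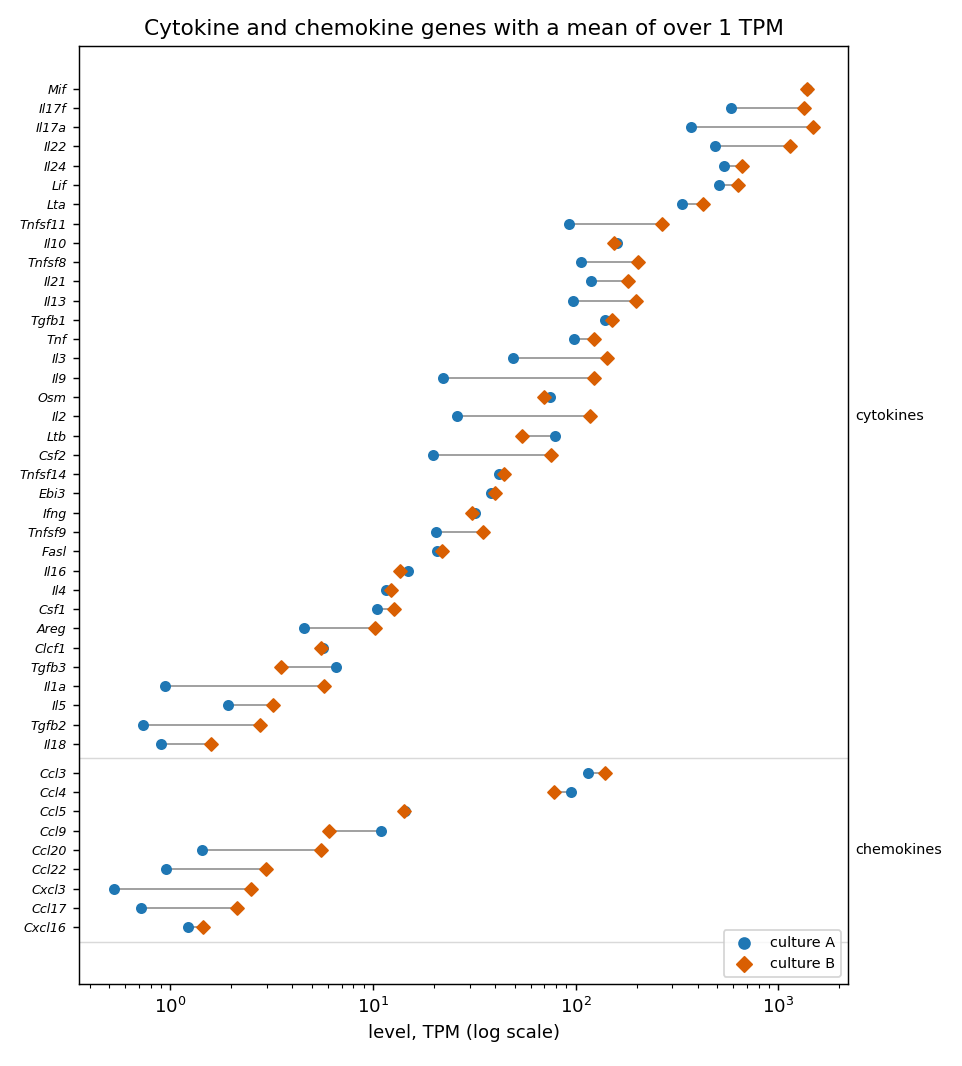
Levels of the cytokine and chemokine genes with a mean over 1 TPM in the 2 empty-vector cultures, in TPM on a log axis, with a circle for culture A and a diamond for culture B, highest mean first within each group. Il17a, Il17f, Il22, Tnfsf11, Il3, Il9, Il2 and Csf2 lie to the right in culture B, while Mif, Il10 and Ifng coincide.

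Chemokine genes were lower. Of the 17 listed, 6 reached 1 TPM in both cultures and only Ccl3 reached 100 TPM in both, at 114 and 140. Ccl4, its neighbour in the inflammatory chemokine family, was at 94.7 and 78.4 TPM, and Ccl5 at 14.4 and 14.2. Ccl20, the ligand of CCR6 that Th17 cells produce, was at 1.43 TPM in A and 5.51 in B, with 11.3 and 42.0 normalized counts. Ccl2, Cxcl9 and Cxcl11 had 0 reads in both libraries.

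More cytokine receptor genes were higher in A than in B. None of the 35 above the floor was 2-fold apart, where 1.69% of all genes were. At that share a list of this size would hold few or none. The normalized count was higher in A for 26 and in B for 9, whereas it was higher in A for 44.6% of all genes, and their median log2 ratio was -0.16. Il2ra was followed by Il12rb2, a chain of the IL-12 receptor, at 776 TPM in A and 608 in B, by Il2rb at 560 and 530, Il4ra at 463 and 437, Il21r at 377 and 323 and Il2rg, the shared γ chain, at 274 and 286. Il12rb1, which pairs with the products of Il12rb2 and Il23r, was at 189 and 167 TPM. The receptors of the polarizing cytokines were at lower levels and were chosen for description for that role. Il6ra was at 26.9 and 18.7 TPM and Il6st, which encodes the signalling chain gp130, at 17.6 and 15.3. Tgfbr1 and Tgfbr2 were at 16.8 and 16.9 and at 33.2 and 33.9 TPM. Il5ra and Il22ra1 had 0 reads in both libraries. The product of Il22ra1 receives IL-22 on epithelial cells.

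Among chemokine and homing receptors, Cd44, the hyaluronan receptor of activated T cells, was at 273 TPM in A and 375 in B. Ccr4 was at 231 and 289 TPM, Ccr7, the receptor for lymph node entry, at 181 and 243, and Gpr15, a receptor for homing to the colon, at 164 and 200. Ccr6, the chemokine receptor by which Th17 cells are often recognized, was at 48.0 and 74.8 TPM and was chosen after its values were seen. Others were lower in B, among them the integrin chain gene Itgb7 at 123 and 69.4 TPM, Cxcr6 at 41.3 and 25.9 and Ccr1 at 27.2 and 14.5, which were chosen after their values were seen. Of 21 genes above the floor, 12 had a higher normalized count in B and 9 in A, with a median log2 ratio of 0.10. At 2-fold or more, 1 was higher in B and 2 in A, where 0.689% and 0.997% of all genes were. Cxcr3, a receptor typical of Th1 cells, was at 5.45 TPM in A and 12.7 in B, 2.26-fold higher in B (1.62 to 3.20).

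Costimulatory and inhibitory receptor genes were high in both cultures, with 21 of 25 at 10 TPM or above. Cd2 was at 1638 and 1538 TPM, Ctla4, the inhibitory counterpart of CD28, at 1161 and 1257, Tnfrsf9 (4-1BB) at 1126 and 973 and Tnfrsf4 (OX40) at 984 and 1115. Lag3 and Tigit, which encode inhibitory receptors, were at 155 and 82.0 and at 112 and 57.9 TPM. Havcr2, which encodes TIM-3, was at 15 TPM in A and 5.09 in B, 3.05-fold higher in A (2.34 to 4.02), and Cd27 at 16.0 and 6.26, 2.65-fold higher in A (2.04 to 3.48). They were the 2 genes of 25 that differed 2-fold or more, both higher in A, where 0.997% of all genes were. All 16 genes of the T cell receptor complex and its proximal kinases reached 10 TPM in both cultures. None was 2-fold apart, where 1.69% of all genes above the floor were. The normalized count was higher in A for 13 of these 16 and in B for 3, where 44.6% and 55.4% of all genes were. Trac, the α constant region, was at 738 and 623 TPM, Cd4 at 705 and 610, and Cd3g at 595 and 395.

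**Figure D3:**
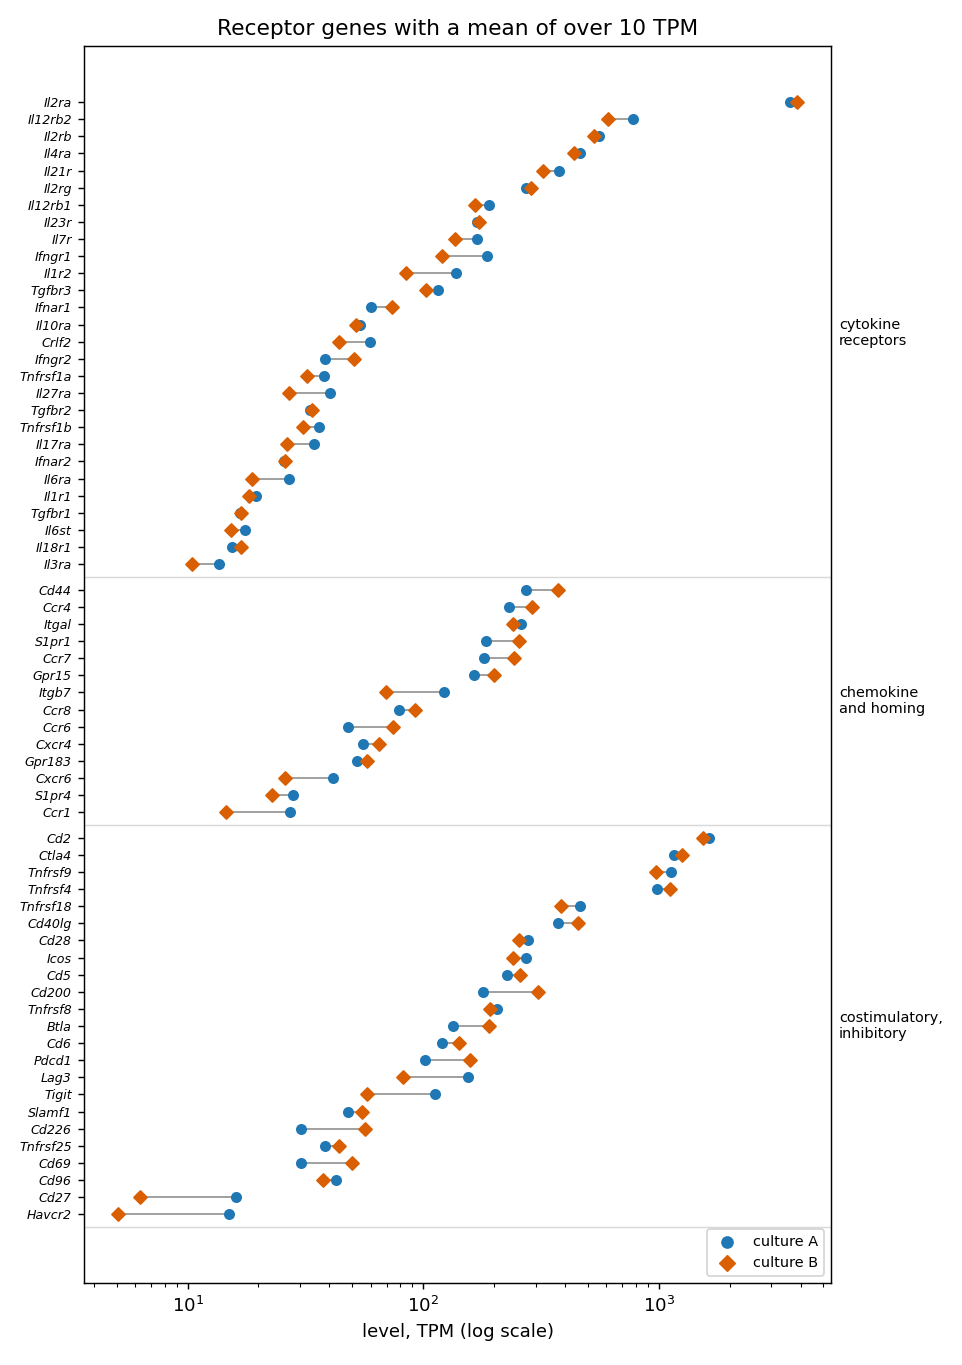
Levels of receptor genes with a mean over 10 TPM in the 2 empty-vector cultures, in TPM on a log axis, with a circle for culture A and a diamond for culture B, in 3 groups with the highest mean first. Il2ra lies above 3000 TPM in both cultures, and Havcr2 and Cd27 show wide gaps, both lower in culture B.

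Genes downstream of the polarizing cytokines were present at graded levels. All 22 listed genes of TGF-β and IL-6 signalling reached 1 TPM and 20 reached 10 TPM in both cultures. Jak2, a kinase, was at 408 and 426 TPM, Pim1, a kinase induced by STAT3, at 432 and 332, and Socs3, the feedback inhibitor of IL-6 signalling, at 255 and 188. Of these 22 genes, 2 were 2-fold or more higher in A (0.997% of all genes), both tied to the storage of latent TGF-β. Lrrc32, which encodes GARP, was at 20.4 TPM in A and 8.16 in B, 2.59-fold higher in A (2.20 to 3.05). Ltbp3, a latent TGF-β binding protein, was at 3.16 and 1.00, 3.26-fold higher in A (2.35 to 4.57). Smad3, a transducer of TGF-β signals, was at 20.2 and 13.3 TPM.

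Genes of the cell cycle and of glycolysis were well expressed in both cultures. All 30 listed cell cycle genes reached 10 TPM in both, with Pcna at 316 and 384 TPM, Top2a at 220 and 252 and Mki67 at 201 and 194. Of these 30, 26 had a higher normalized count in B, where 55.4% of all genes did, none by 2-fold, and their median log2 ratio was 0.18. The 22 genes of glycolysis and hypoxia all reached 10 TPM, led by Pkm, pyruvate kinase, at 2028 and 2040 TPM, Ldha, lactate dehydrogenase, at 1760 and 2175, and Gapdh at 1885 and 1943. Their median log2 ratio was 0.04, and only Slc2a3, the glucose transporter GLUT3, was 2-fold apart, at 77.6 TPM in A and 27.2 in B, 2.95-fold higher in A (2.75 to 3.16). The 18 genes of cholesterol synthesis reached 10 TPM as well, and none was 2-fold apart. Of all genes above the floor 1.69% were 2-fold apart, so lists of these sizes would hold few or none.

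Cytotoxic effector genes were higher in A. Gzmb, granzyme B, was at 800 TPM in A and 316 in B, 2.62-fold higher in A (2.50 to 2.75). Gzma, granzyme A, was at 158 and 19 TPM, 8.60-fold higher (7.02 to 10.6). Nkg7, a granule protein gene, was at 123 and 47.2 TPM, 2.70-fold higher (2.32 to 3.15), Ctsw at 57.4 and 24.3, 2.44-fold (2.10 to 2.84), and Prf1, perforin, at 20.5 and 8.67, 2.45-fold (1.98 to 3.05). These are 5 of the 7 genes above the floor, against 0.997% of all genes. Gzmc, at 91.8 and 57.1 TPM, and Fasl, at 20.6 and 21.9, were less than 2-fold apart. Gzmk and Klrg1 had 0 reads in both libraries.

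Interferon-stimulated genes were higher in B. Of 34 listed genes, 22 passed the floor, 21 of them had a higher normalized count in B, where 55.4% of all genes did, and their median log2 ratio was 0.52. Ifi203, a DNA sensor family gene, was 2.63-fold higher in B (1.87 to 3.76), Isg15, a ubiquitin-like modifier, at 15.9 and 41.0 TPM, 2.49-fold (1.86 to 3.37), Irf7, a regulator of type I interferon, at 7.88 and 18.1 TPM, 2.22-fold (1.84 to 2.68), and Ifit1, an RNA-binding effector, at 6.47 and 14.7 TPM, 2.19-fold (1.71 to 2.83). These 4 of 22 were the members 2-fold or more higher in B, where 0.689% of all genes were. The most abundant member, Ifi27l2a, was at 405 and 502 TPM. Adar, an interferon-inducible deaminase gene, was at 49.1 TPM in A and 61.6 in B, and Adarb1, the gene of ADAR2 itself, at 57.8 and 55.3. The empty-vector cells thus carried transcripts of both editing enzymes.

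Noncoding genes took 11.832% of the assigned reads in A (11.818 to 11.847) and 11.125% in B (11.111 to 11.139, exact 95% binomial intervals). A single gene, Gm26917, made up most of this, with 2003616 reads or 10.49% in A and 1938276 reads or 9.85% in B. Gm26917 is annotated as a long intergenic noncoding RNA on chromosome 17, 39843013 to 39846341 (mm10), 11 bases from the annotated ribosomal RNA gene CT010467.1. Libraries were made from RNA depleted of ribosomal RNA. The part of ribosomal RNA in the reads of Gm26917 was not tested. Without it, noncoding genes held 1.496% of the remaining reads in A and 1.412% in B. Nuclear protein-coding genes held 87.7% and 88.4%.

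The remaining noncoding reads were spread over many genes. Long noncoding genes other than Gm26917 held 0.917% of reads in A and 0.922% in B, and small noncoding genes 0.210% and 0.167%. With Gm26917 included, 1383 of 13374 annotated long noncoding genes reached 1 TPM in both cultures, 126 reached 10 TPM and 16 reached 100 TPM. Mitochondrial ribosomal RNA held 0.213% and 0.185%. Rn7sk, the 7SK RNA that restrains transcription elongation, was at 16134 TPM in A and 12274 in B. Malat1, a nuclear long noncoding RNA, was at 976 and 984 TPM, and Gas5, a host gene of small nucleolar RNAs, at 195 and 149. None of the 25 named noncoding RNAs above the floor was 2-fold apart, where 1.69% of all genes were.

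The host transcripts of 2 microRNAs of activated lymphocytes were among the better expressed long noncoding RNAs. Mir155hg was at 87.2 TPM in A and 109 in B and Mir142hg at 72.9 and 92.1. Their mature products are shown because these host transcripts are the trace of them that these libraries hold, with the seed, bases 2 to 8, in capitals (RefSeq, GRCm38.p6).
mmu-miR-155-5p: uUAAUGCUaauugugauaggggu
mmu-miR-142a-3p: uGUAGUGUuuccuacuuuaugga
The seeds differ. The hairpin genes Mir155 and Mir142 had 0 reads in both libraries, which were made from total RNA without selection of small RNA, so mature microRNA was not measured.

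Across the 10735 genes averaging 50 normalized counts or more, the log2 levels of the 2 cultures had a Pearson correlation of 0.985 and a Spearman correlation of 0.988, as a description across genes of 2 libraries. The median absolute log2 ratio was 0.16. A difference of 2-fold or more was found for 181 genes (1.69%), 74 of them higher in B (0.689%) and 107 higher in A (0.997%). The counting interval excluded equality for 5201 genes (48.4%). That share rose with depth, to 62.9% of genes from 1000 to 5000 normalized counts and 81.4% above. The share of 2-fold genes was 4.39% at means of 50 to 200 normalized counts, 1.45% from 200 to 1000, 0.301% from 1000 to 5000 and 0.653% above 5000. The 4 such genes above 5000 normalized counts were Il17a, Il17f, Inhba, which encodes a subunit of activins and was at 3756 in A and 8865 in B, and Ablim1, an actin-binding protein gene, at 7909 and 3300.

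Among genes whose mean over both cultures met the floor, Fosb, an immediate early AP-1 gene, had the highest ratio of B to A. Fosb was at 19.5 normalized counts in A and 140 in B. It was followed by Htr1b, a serotonin receptor gene, Il9, Il2, Lum, which encodes the matrix proteoglycan lumican, and Il17a. Lum was at 129 and 539 normalized counts, 4.17-fold higher in B (3.43 to 5.10). Below these came Ccn1, Dio2, Csf2, Tgfb2, Shtn1 and Kcnk10, with log2 ratios from 1.69 to 1.88. At the other end stood Ly6g, at 237 normalized counts in A and 26.3 in B, 8.98-fold higher in A (6.02 to 13.9), and Gzma. Ly6c1, a member of the same surface antigen family 106.4 kb from Ly6g on chromosome 15, was at 733 and 188, 3.89-fold higher in A (3.31 to 4.58). Ly6g and Ly6c1 belong to a family of similar genes, and how reads shared between copies were counted is not given in the sources used here. Ecm1, a secreted matrix protein gene, was the most abundant of the lowest ratios, at 5534 and 1447 normalized counts, 3.82-fold higher in A (3.61 to 4.05). Plac8, Moxd1, Tha1, Itih5, Unc5b, Aqp9 and Rasgrp2 had log2 ratios from -2.20 to -1.77. Some of these genes met the floor only through the culture in which they were higher. Like Tgfb2, Fosb, Htr1b and Ccn1 were below it in A, and Ly6g and Aqp9 were below it in B.

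**Figure D4:**
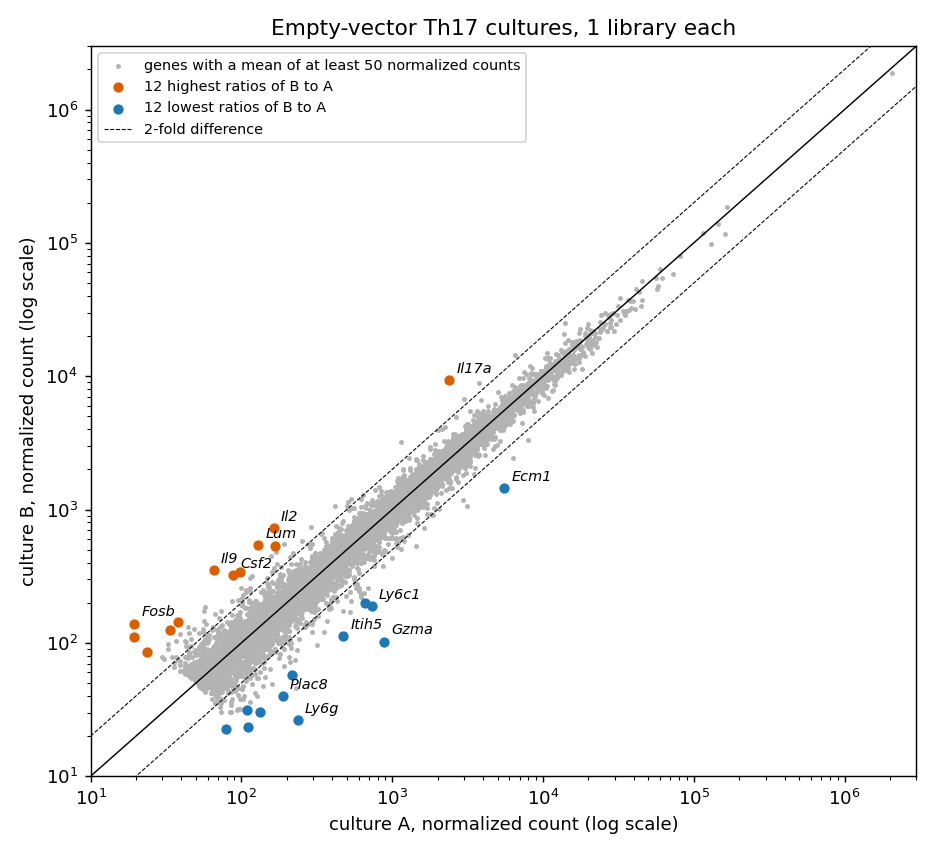
Normalized counts of 10735 genes in culture B against culture A on log axes, 1 point a gene, with a solid line for equality, dashed lines for a 2-fold difference, and the 12 highest and 12 lowest ratios in colour. Nearly all points lie between the dashed lines, with 181 genes on or beyond them, among them Il17a above and Ecm1, Gzma and Ly6g below.

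Whether the differences between cultures A and B belong to the mice they came from was asked of the other 4 libraries, which hold 1 culture per construct from each donor. No label says which libraries come from 1 mouse, and this was inferred from the deposited test statistics. Of the 181 genes 2-fold apart in the empty-vector pair, 171 had the same sign in the ADAR2 WT pair, 159 in the ADAR2 E396A pair and 155 in both (85.6%, against 48.0% of all 10735 genes). In a limma fit on the 4 construct libraries alone, which the choice of the 181 did not use, 102 passed at an adjusted p under 0.05 in the same direction (56.4%), where 8.31% of the 10735 genes did, and 2, Slc7a2 and Ppp1r14c, passed in the opposite direction. The fit on the construct libraries leaves fewer residual degrees of freedom than the 2 of the fit on all 6 libraries. Its calls lean even more on the variance shared between genes, and it was not tried on simulated counts. The mouse and the handling of its cells before and during culture cannot be told apart.

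With all 6 libraries, group and donor as terms, 1124 of 14958 genes differed between the donors (7.51%), 555 higher in donor B (3.71%) and 569 higher in donor A (3.8%, limma, adjusted p under 0.05). The empty-vector libraries are part of this fit, so for genes picked by their ratio it is a description of how steady the difference was. The count dropped to 112 when the ADAR2 WT library from donor A was left out and to 224 when that from donor B was, and it was 1701 when the E396A library from donor B was. Without both empty-vector libraries it was 1047. The empty-vector libraries also enter the statements below that the donors did not overlap. The share of all genes without overlap is not given here.

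Il17a was in donor A at 2437, 6602 and 2616 normalized counts (empty vector, ADAR2 WT and ADAR2 E396A in this order) and in donor B at 9279, 17878 and 18145. All libraries of donor B lay above all those of donor A, with a donor difference of 2.05 on the log2 scale (SE 0.20, limma adjusted p = 0.0015). Tnfsf11 was at 1162, 1231 and 991 in donor A and at 3201, 2933 and 2725 in donor B, a difference of 1.39 (SE 0.06, limma adjusted p = 0.00017). Ahr was at 1888, 1883 and 1871 in donor A and at 908, 981 and 965 in donor B, a difference of -0.98 (SE 0.06, limma adjusted p = 0.00035). For neither gene did the donors overlap, and within a donor the 3 libraries differed little. Il2 and Il9 were less steady. Il9 ranged from 66.7 to 422 within donor A and from 222 to 890 within donor B, so its donors overlapped. The values of Il2 per library are not given here. Csf2 and Il3 were the 2 cytokine genes of the 9 whose donor difference did not pass, with limma adjusted p of 0.59 and 0.30. In the E396A pair Csf2 had a log2 ratio of -0.97.

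By list, 12 of 35 cytokine genes tested were higher in donor B and none in donor A, where 3.71% and 3.8% of all genes were. Besides the 7 already given by their 2-fold difference, these were Lta, Tnfsf8, Tnf, Tnfsf9 and Areg. Of 31 interferon-stimulated genes tested, 23 were higher in donor B and none in A, among them Ifih1, a sensor of double-stranded RNA, at 565, 862 and 613 normalized counts in donor A and 1024, 1480 and 1259 in donor B (difference 0.89, SE 0.07, limma adjusted p = 0.00083). Ifih1 did not overlap between the donors. Of 10 cytotoxic genes, Gzmb, Gzma, Nkg7 and Ctsw were higher in donor A. Gzma was at 896, 501 and 2008 in donor A and at 102, 95.8 and 27.0 in donor B. The granzyme values differed several-fold within donor A and were still above every library of donor B.

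Among the Th17 factors, Ets1, Maf, Ahr, Prdm1 and Ikzf3 were higher in donor A and Nfkbiz in donor B, of 20 tested. Among homing receptors, Cd44, S1pr1, Ccr7, Ccr6 and Cxcr3 were higher in donor B, and Itgb7, Cxcr6, Ccr1 and Itgae were among those higher in donor A. Ccr6 was at 627, 339 and 327 normalized counts in donor A and at 927, 818 and 1002 in donor B, without overlap. Among costimulatory and inhibitory receptors, 6 were higher in donor B, including Pdcd1, Cd69 and Cd226, and 7 in donor A, including Lag3, Tigit, Havcr2 and Cd27, of 25. Of 41 cytokine receptors, Il18rap and Ifnar1 were higher in donor B and Il12rb2, Il1r2, Il27ra and Tgfbr3 in donor A. Of 30 cell cycle genes 1 passed, Rrm2, a subunit of ribonucleotide reductase, higher in donor B. Of 9 factors of regulatory T cells tested, 4 were higher in donor B and none in donor A. Of 9 chemokine genes, 3 were higher in donor B and 1 in donor A. Of 16 genes of the T cell receptor complex, 4 were higher in donor A and none in donor B. Of 28 named noncoding RNAs, 5 were higher in donor A and none in donor B. Over all genes tested, 3.71% were higher in donor B and 3.8% in donor A. The cell cycle count and that of cytokine receptors higher in donor B were near this share.

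**Figure D5:**
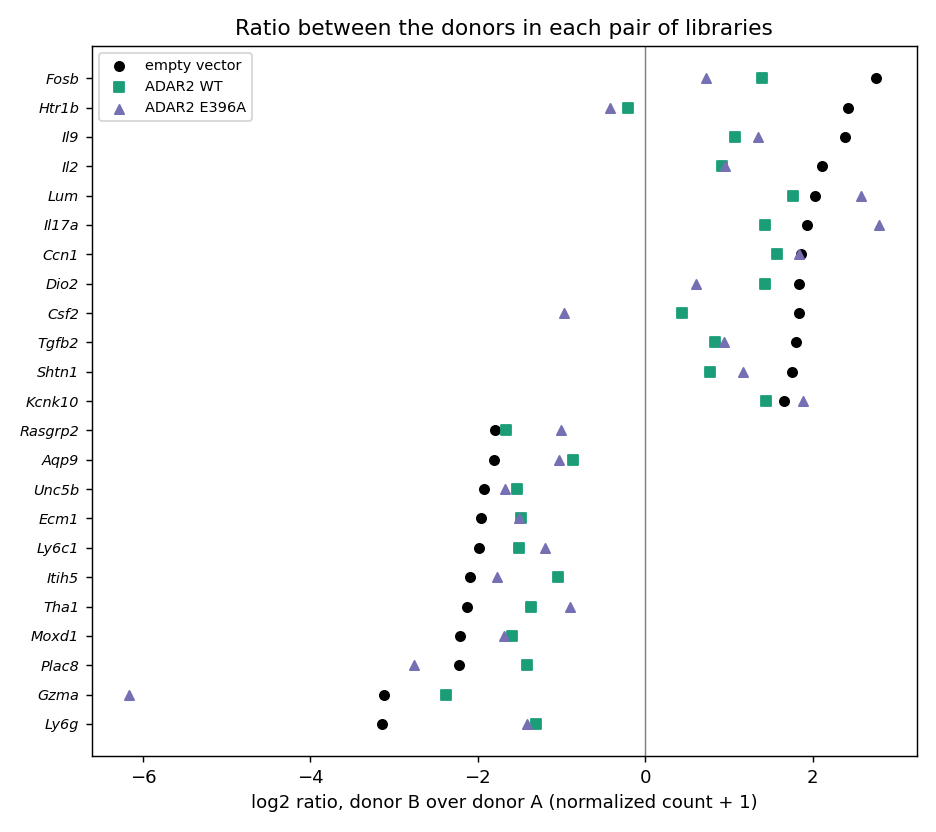
Log2 ratio of donor B to donor A in the empty-vector pair (circles), the ADAR2 WT pair (squares) and the ADAR2 E396A pair (triangles), on normalized counts plus 1, for genes among the 12 highest and the 12 lowest ratios in the empty-vector pair, which chose them. Among the genes shown, the construct pairs lie on the same side of 0 as the empty-vector pair for all but Htr1b, which is below 0 in both, and Csf2, which is below 0 in the E396A pair.

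Markers of other cells were checked in the same libraries. The B cell gene Ms4a1 had 0 reads in both, and 1 of 7 listed B cell genes passed the floor, Ebf1, at 13.6 TPM in A and 21.9 in B. Myeloid and dendritic genes added up to 9.17 TPM in A and 11.6 in B over 13 genes, 6 of them at 0 reads, and erythroid and platelet genes to 0.766 and 5.63 over 8 genes, 4 of them at 0. Of the 7 CD8 and NK genes, Klrc1, an NK receptor gene also induced on activated T cells, was at 94.1 and 93.7 TPM, Cd8b1 at 18.0 and 14.1 and Cd8a at 0.458 and 3.36, with Ncr1 and Klrb1c at 0 reads. Klrd1 was at 24.0 and 15.9 TPM and Klrk1 at 7.13 and 5.17. The 4 of these above the floor, Klrc1, Cd8b1, Klrd1 and Klrk1, all had a higher normalized count in A, the direction of the cytotoxic genes, with a median log2 ratio of -0.45 and none 2-fold apart. In the fit of the donors over 6 libraries, limma adjusted p of these 4 ran from 0.16 (Klrc1) to 0.88 (Klrd1). The list summed to 144 TPM in A and 132 in B, beside cytotoxic effector genes that summed to 1298 and 502. The part of other cells in the cytotoxic difference was not tested beyond these values. Xist, transcribed from the inactive X chromosome of female cells, was at 117 and 98.4 TPM, and the Y-linked genes Ddx3y, Eif2s3y, Kdm5d and Uty had 0 reads in both cultures.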

How the data were processed

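Per the labels' protocols, libraries of the 6 cultures were made from RNA depleted of ribosomal RNA and read on an Illumina NovaSeq. The submitters' processing notes name STAR 2.6.1a, featureCounts, DESeq2 1.18.1 and mm10. Strand setting and annotation: not given in the sources used here. For each construct the authors deposited a table with normalized counts per library, which are a signal. Per the file headers it also has a mean, a log2 fold change, a Wald score, and p-values before and after adjustment.

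Reads were recovered by dividing each library column by its smallest value above 0. All values (100%) came out whole within 0.001 of a read. The deposited Wald scores were returned without difference when libraries were paired in 1 of the 2 possible ways, over 28601 genes for ADAR2 WT and 28872 for ADAR2 E396A, while crossed pairs differed by up to 13.8 and 6.08. That pairing defines donors A and B. Which labelled replicate is which is not known.

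The empty-vector reads were scaled together by median-of-ratios factors. Gene positions, types and exon lengths came from GENCODE vM21, in which every ID was found. Ratios use log2 of normalized count plus 1, which understates differences of low genes, and a 2-fold threshold at a mean of at least 50. The donor fit used limma 3.58.1 in R 4.3.3 with a variance trend on libraries scaled over all 6, edgeR's filterByExpr and Benjamini-Hochberg adjustment at 0.05. It was fitted to log2 of the recovered reads after this scaling, plus 1. The trend was adopted after the fit without it recovered 0 changed genes in simulated counts. With it, 294 of 300 genes changed 2-fold (98%) and 252 of 300 changed 1.5-fold (84%) were recovered over 3 runs of about 14609 to 14625 genes, with 62 false calls. The false calls were a larger share of all calls than the 0.05 that the adjustment is set for.

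The genes and 27 lists (460 of 466 symbols matched) were chosen with earlier results of these data known. Genes named were the 6 markers, lineage genes, up to 8 highest levels and 4 largest ratios per list, list members without reads, the highest levels of all genes, and the 12 highest and lowest ratios above the floor (predicted genes, clones and receptor segments left out). Other list members were named after their values were seen. Nothing in the labels says whether replicate libraries share a preparation, so p-values measure the spread between these samples. The libraries of a donor are cultures of 1 mouse, so the donor p-values do not measure the spread between mice. Motifs were searched in RefSeq promoters on both strands. Other tools (edgeR 4.0.16, DESeq2 1.42.0), scalings, floors, pseudocounts and lengths were tried, as was leaving out each library. Some genes are not reported here.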

Additional observations from a re-analysis of the deposited data

Results flagged for a closer look

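For 3 of the genes named, the ratio of the cultures ran one way in the empty-vector pair and the other way in both construct pairs. Htr1b had a log2 ratio of B to A of 2.44 with empty vector, -0.21 with ADAR2 WT and -0.43 with ADAR2 E396A. Slc7a2, a cationic amino acid transporter gene, had 1.56 with empty vector, -0.65 with ADAR2 WT and -2.36 with ADAR2 E396A. Ppp1r14c, an inhibitor of protein phosphatase 1, had -1.19 with empty vector, 1.17 with ADAR2 WT and 1.28 with ADAR2 E396A. Slc7a2 and Ppp1r14c were named because the construct libraries alone passed limma's test against the empty-vector direction. The difference between the pairs was not tested for any of the 3. Htr1b was at 19.5 normalized counts in culture A.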

How the results depend on the processing

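The count of genes 2-fold apart between the empty-vector cultures, 181, lay between 155 and 188 under TMM scaling, total reads, factors over all 6 libraries or a pseudocount of 10. It followed the floor and the threshold: 635 at a mean of at least 10, 5722 without a floor, 79 at 200, and 699 at 1.5-fold. Among genes of the lists the count was 30, and 49, 81 and 71 at a mean of at least 10, without a floor and at 1.5-fold. The donor count, 1124, was 1128 by edgeR, 831 by DESeq2 and 1266 with TMM. It was 470 without the group term and 0 without the variance trend, where 2612 genes had an unadjusted p under 0.05, against 3293 with it. Leaving out each library gave 112 to 1701, lowest without either ADAR2 WT library (112 and 224) and highest without the E396A library of donor B; the cause was not tested. Of 106 donor calls on named genes, 36 and 45 held without the ADAR2 WT library of donor A and B, and Il22 was among those lost (adjusted p = 0.13 and 0.085, limma). No 2-fold ratio and no donor call on a named gene changed sign. The noncoding share, 11.8% and 11.1% in A and B, was 11.7% and 11.0% over nuclear genes, 11.6% and 11.0% without small RNA genes, and 1.496% and 1.412% without Gm26917. For level per length, the number of protein-coding genes at 1 TPM, 10940, was 10886 with longest transcripts and 11140 over nuclear protein-coding reads. Of the mean levels of named genes under these settings, 293 moved by at least the SD between the cultures and 279 by less. Of their log2 ratios under other scalings and a pseudocount of 10, 83 left the counting interval and 1061 stayed within it. By the labels' replicate numbers no paired analysis was possible because the library columns carry none; the donor pairs used here were found from the deposited statistics instead. With 2 residual degrees of freedom the donor test leans on the variance shared between genes.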

Other observations

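Ribosomal protein genes, a list taken by symbol after the data were seen, were lower in culture B almost throughout. Of 84 cytosolic ribosomal protein genes, 80 passed the floor, and 77 of them had a lower normalized count in B, where 44.6% of all genes did. None was 2-fold apart, where 1.69% of all genes were. The ribosomal protein genes had a median log2 ratio of -0.29 and summed to 133320 TPM in A and 113410 in B. The donor difference passed for 72 of 82 genes with higher values in donor A and for 1, Rpl39l, with a higher value in donor B (limma, adjusted p under 0.05), where 3.8% and 3.71% of all genes did. Rplp1 was at 26849, 25492 and 26291 normalized counts in the libraries of donor A and at 21834, 19749 and 20801 in those of donor B, without overlap.

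Protein-coding genes of the mitochondrial genome were unequal in these tables. In culture A mt-Co1 was at 2484 TPM and mt-Nd1 at 469, while mt-Co2, mt-Co3 and mt-Atp6 were at 0.541, 1.89 and 0.543. In culture B mt-Co1 was at 1806 TPM and mt-Nd1 at 576, mt-Co3 and mt-Atp6 were at 1.16 and 0.803, and mt-Co2 had 0 reads. How reads that match more than 1 place were counted is not given in the sources used here.

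Lum and Ecm1, which encode extracellular matrix proteins, differed between the donors in opposite directions. Lum was at 131, 190 and 105 normalized counts in donor A and at 538, 650 and 635 in donor B, and Ecm1 at 5624, 4148 and 6178 against 1444, 1483 and 2163. Neither overlapped between the donors. Both were named by their ratio in the empty-vector pair, so only the construct libraries are free of that choice. Of 9 stromal and endothelial marker genes, 1 passed the floor, Pecam1, at 8.49 TPM in A and 5.88 in B.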
